A study of Capra hircus with 7 samples.

Results

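The smooth muscle contractile genes ACTA2, ACTG2, TAGLN, CNN1, MYH11, MYLK, TPM1, TPM2, LMOD1 and MYL9 were followed across goat (Capra hircus) mammary cell libraries in which the level of a circular RNA, cirRNA28250, had been altered. The members were chosen by symbol as a known programme, and each was found by its NCBI Gene identifier, which made 10 of the 17374 genes in the deposited table. All 10 passed the filter on low values, which kept 12180 genes. Cells of the mammary gland of the Lanshan dairy goat were grown in 3D culture and received virus, and total RNA was sequenced. The groups were cKDmix, with inhibition of cirRNA28250 (2 libraries), its control c3NC (2 libraries), cRNA28250, with overexpression from the virus (2 libraries), and its control c5NC (1 library, which the labels number as replicate 2). The pairing of controls follows the order of the design text, and what 3NC and 5NC stand for is not spelled out in the labels. Whether replicates are separate cultures or separate animals is not stated in the labels. Every p-value therefore measures only library-to-library spread, which may be technical. The circRNA itself was not analysed here, so the knockdown and the overexpression are taken from the labels.

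Smooth muscle contracts when calcium-bound calmodulin activates myosin light chain kinase, which phosphorylates the regulatory light chain and lets myosin pull on actin filaments. Genes of this set mark mature smooth muscle. Some also mark myoepithelial cells that squeeze milk from the alveoli, pericytes, and myofibroblasts that arise from fibroblasts in culture and in scars. Serum response factor with its cofactors myocardin and the MRTF proteins drives most of these genes, and TGF-beta signalling and mechanical tension raise them in fibroblasts.

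Values are FPKM, fragment numbers corrected for the length of the transcript and for the total mapped, so that levels can be compared between genes of different length. The depth per library is unknown, since FPKM do not give it. Between 10896 and 11870 genes reached 1 FPKM in a library. The tests ran on log2(FPKM + 1) over all genes with limma, and calls were made where the Benjamini-Hochberg adjusted p was below 0.05; log2 fold changes are on that scale and understate the change of low genes. The single c5NC library stood apart for these genes, with 9 of 10 members at their lowest level of the 7 libraries, against 21.5% of all tested genes lower in c5NC than in each of the 6 other libraries. Results for overexpression are therefore given against c5NC and again against c3NC. In bulk RNA of this kind, fewer cells of a type and less RNA per cell cannot be told apart.

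The 10 genes together made up 0.927% and 0.914% of the summed FPKM in cKDmix and 0.526% and 0.739% in c3NC. They made up 0.491% and 0.527% in cRNA28250 and 0.105% in c5NC. In this share the knockdown libraries thus lay above both c3NC libraries, and c5NC lay below all 6 others. The summed FPKM of all genes was lower in cKDmix (529676 and 476096) than in c3NC (608882 and 588129). The 10 genes themselves summed to 4909 and 4350 FPKM in cKDmix and to 3205 and 4348 FPKM in c3NC. TAGLN was the most abundant of the 10 in all 7 libraries. ACTA2, TPM1, TPM2 and MYL9 stayed within ranks 2 to 6, and CNN1, LMOD1 and MYH11 stayed in ranks 7 to 10 in each library.

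**Figure D1:**
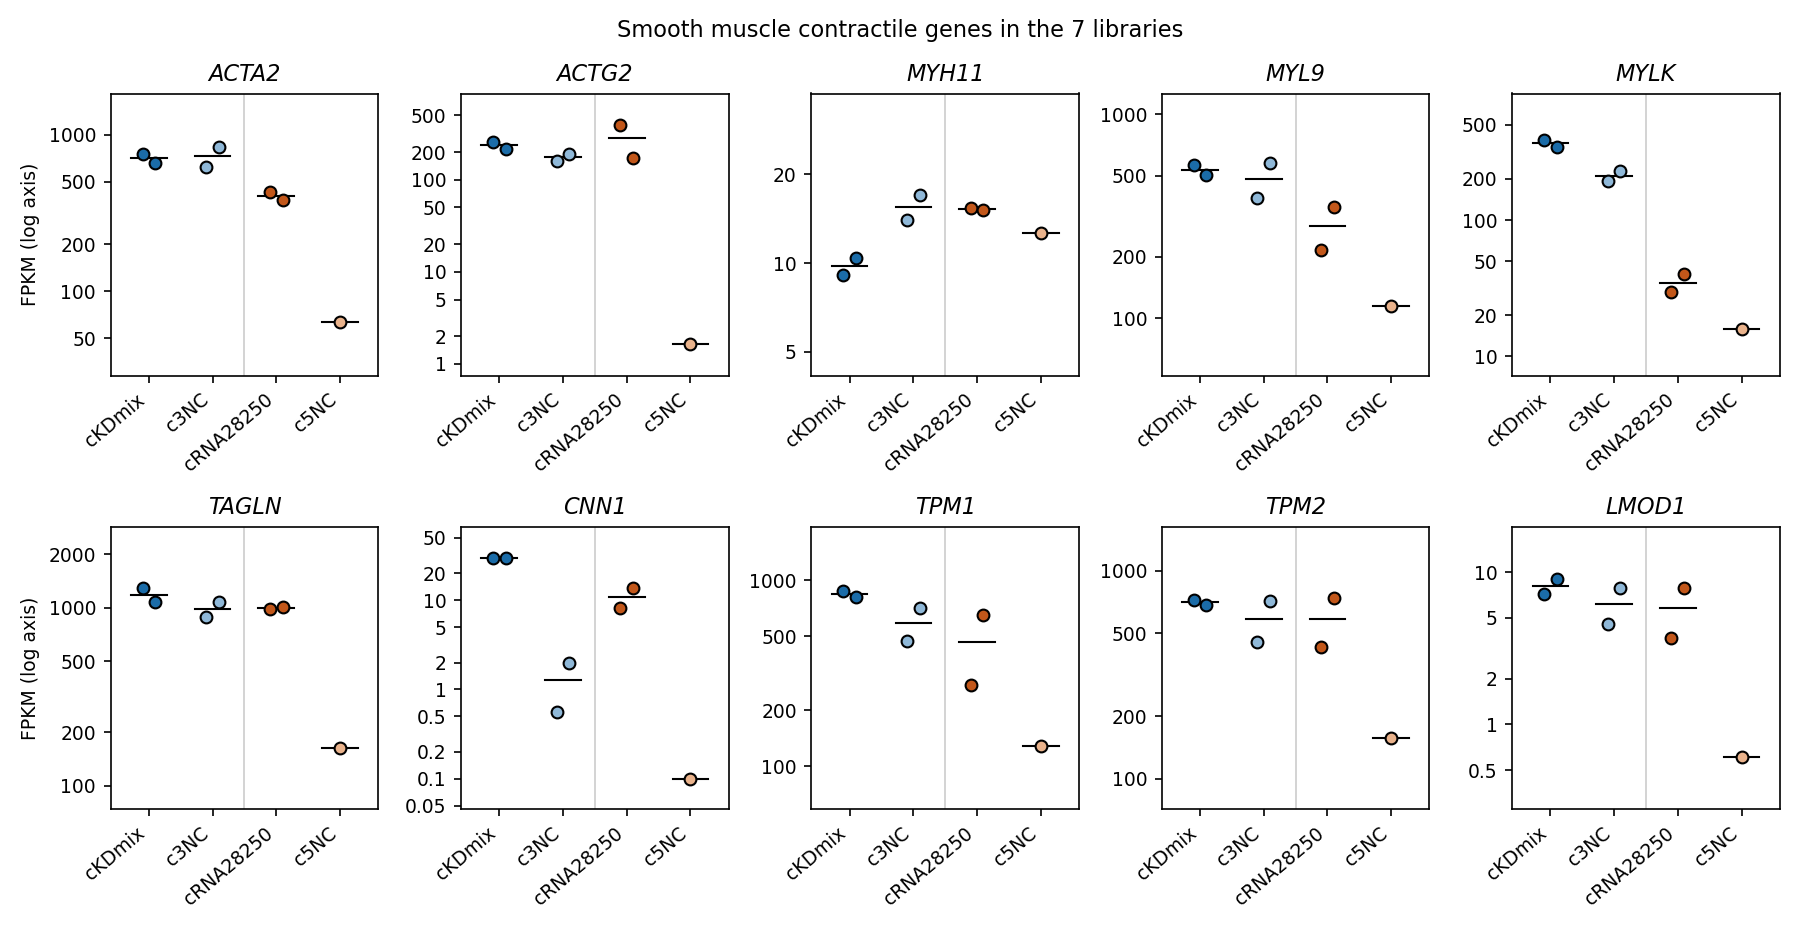
FPKM (log axis) of the 10 contractile genes in each library, with cKDmix beside c3NC and cRNA28250 beside c5NC; each point is 1 library. The c5NC point is the lowest for 9 of the 10 genes, CNN1 separates cKDmix at 29.99 and 29.65 FPKM from c3NC at 0.56 and 1.99 FPKM, and MYLK is at 29.52 and 40.09 FPKM in cRNA28250.

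In knockdown, 2 of the 10 genes rose, 1 fell and 7 were not called, against 26.8% of all tested genes higher and 7.56% lower in cKDmix than in c3NC. The genes that rose were CNN1, calponin, and MYLK, the kinase of the myosin light chain. The gene that fell was MYH11, the smooth muscle myosin heavy chain. The median log2 fold change of the 10 was 0.33, beside 0.30 over all genes tested, so the members as a list lay near the whole table. Without c3NC replicate 1, c3NC replicate 2 or cKDmix replicate 1, 1 gene (CNN1) was called, and without cKDmix replicate 2 none was. Scaling the libraries by median ratios takes the median of all genes to 0.01, so the called members in knockdown are also given relative to the shift of 0.30, while other genes are given as fitted.

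In overexpression, 6 of the 10 genes rose against c5NC, none fell and 4 were not called, while 5.07% of all tested genes were higher and 2.55% lower in cRNA28250 than in c5NC. ACTG2, ACTA2, TAGLN, CNN1, LMOD1 and TPM2 were the 6. The count was 4 without either cKDmix library, which adds only to the estimate of spread, and 9 without cRNA28250 replicate 1. In each comparison the number called over all tested genes also moved with 1 library left out, as given further below. Member counts from those fits therefore have no fixed share to stand beside. In the full fit the median of the 10 was 1.92, beside 0.16 over all genes. Set against c3NC, the same cRNA28250 libraries gave 1 gene higher (CNN1), 1 lower (MYLK) and 8 not called, against 3.55% of all genes higher and 0.764% lower. The median of the 10 was then −0.07, beside 0.19 over all genes.

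The controls themselves differed. In c3NC, 7 of the 10 genes were higher than in c5NC, none was lower and 3 were not called, while 2.73% of all tested genes were higher and 3.07% lower. The median of the 10 between the controls was 2.14, beside −0.05 over all genes. With 1 library left out the count was 3 without c3NC replicate 2, 4 without c3NC replicate 1 or either cKDmix library, and 8 without either cRNA28250 library. This comparison and cRNA28250 against c5NC share the c5NC library, and the comparisons against c3NC share its 2 libraries, so their values are set side by side and not counted as separate evidence.

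The difference between the effects was overexpression against c5NC minus knockdown against c3NC. It was called for 3 of the 10 genes, ACTG2, ACTA2 and TAGLN, each with a positive difference. A positive difference means a more positive effect in overexpression, not a higher level. Mean ACTA2 and TAGLN were lower in cRNA28250 (408 and 999 FPKM) than in cKDmix (706 and 1189 FPKM). Mean ACTG2 was higher in cRNA28250 (282 against 238 FPKM). The count was 1 without c3NC replicate 2 or either cKDmix library, 2 without c3NC replicate 1 and 7 without cRNA28250 replicate 1. Over all tested genes 3.69% had a called positive difference and 4.01% a called negative difference, with the listed controls. With the controls exchanged, 8 of the 10 genes were called, all 8 with a negative difference. The share over all tested genes with exchanged controls is not given here, so this count has no background beside it. Of those 8, 7 had the opposite sign with the listed controls. CNN1 kept a negative sign in both.

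**Figure D2:**
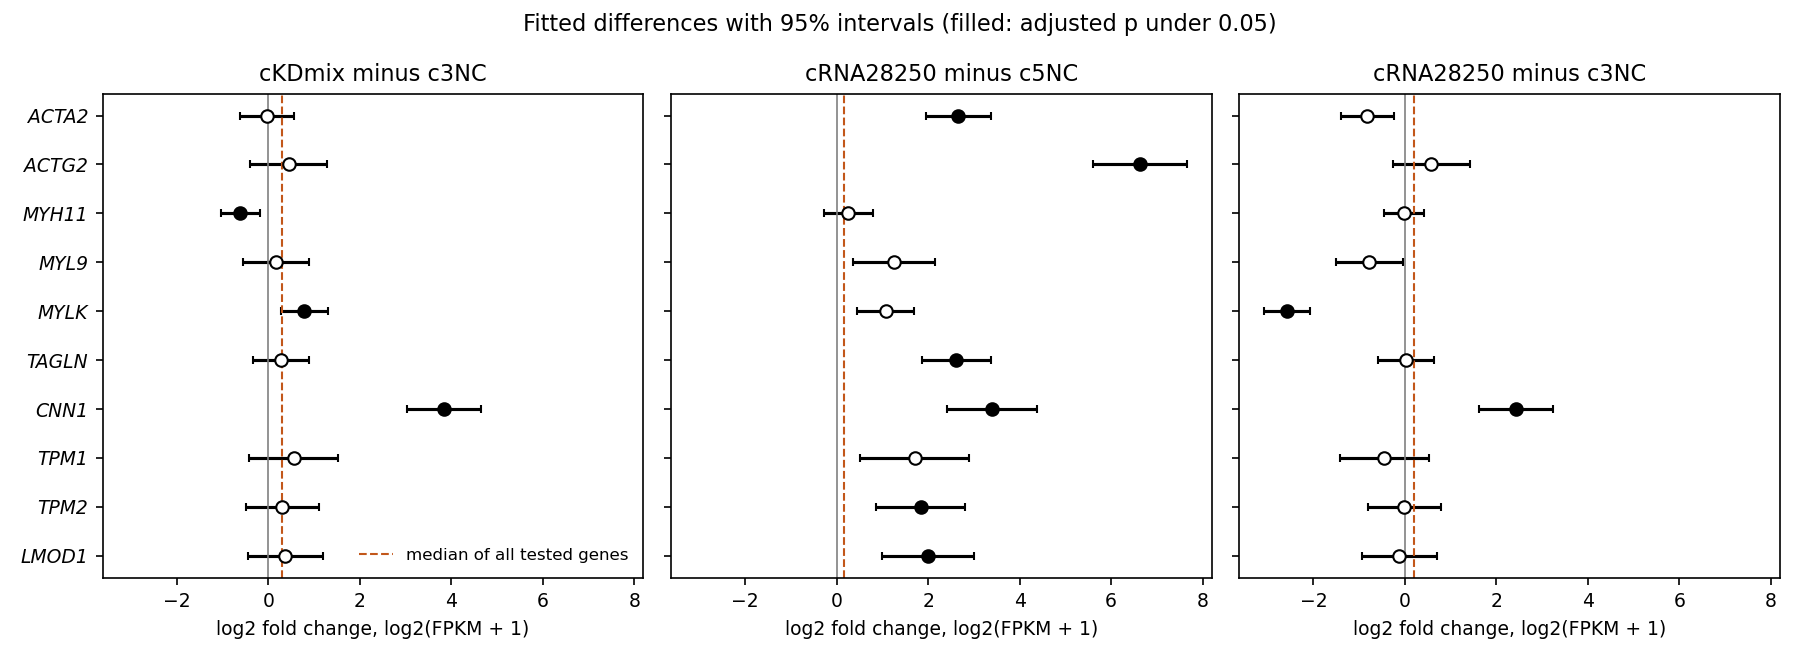
Log2 fold change of each contractile gene, on the log2(FPKM + 1) scale with 95% intervals from limma. The comparisons are cKDmix minus c3NC, cRNA28250 minus c5NC and cRNA28250 minus c3NC, and filled points are called. CNN1 is at 3.83 in knockdown, ACTG2 is at 6.63 in cRNA28250 against c5NC, and MYLK is at −2.58 in cRNA28250 against c3NC.

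Among the actins, ACTA2 encodes alpha smooth muscle actin, the standard marker of myofibroblasts. ACTA2 was at 753.63 and 659.24 FPKM in cKDmix and at 622.56 and 833.72 FPKM in c3NC. The knockdown values lay between the 2 control values. Means were 706 ± 66.7 FPKM in cKDmix and 728 ± 149 FPKM in c3NC (SD, n = 2 each). The log2 fold change of ACTA2 in knockdown was −0.03 with a 95% interval of −0.62 to 0.55 (limma, Benjamini-Hochberg adjusted p = 0.934). In the overexpression arm ACTA2 was at 431.69 and 383.93 FPKM in cRNA28250 and at 63.51 FPKM in c5NC. Both overexpression libraries were above c5NC and below both c3NC libraries. Against c5NC the log2 fold change was 2.66 ± 0.31 (SE; limma, Benjamini-Hochberg adjusted p = 0.00374), a ratio of mean FPKM of 6.42. Against c3NC it was −0.82 ± 0.25 and was not called (limma, Benjamini-Hochberg adjusted p = 0.114). The direction of ACTA2 in overexpression therefore depended on the control.

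ACTG2 encodes gamma smooth muscle actin, the form typical of visceral smooth muscle. ACTG2 was at 258.25 and 217.96 FPKM in cKDmix and at 161.01 and 188.94 FPKM in c3NC. The groups did not overlap, but the log2 fold change of 0.44 (95% interval −0.40 to 1.28) was not called (limma, Benjamini-Hochberg adjusted p = 0.369). In cRNA28250 it was at 392.75 and 171.72 FPKM, a spread of 2.29 times between replicates, and in c5NC at 1.64 FPKM. The c5NC value was 98.2 times below the lowest of the 6 other libraries. Against c5NC the log2 fold change was 6.63 ± 0.44 (SE; limma, Benjamini-Hochberg adjusted p = 0.000681), the second largest in absolute size of the 12180 genes. Against c3NC it was 0.57 ± 0.36 and not called (limma, Benjamini-Hochberg adjusted p = 0.377), with replicate 1 above and replicate 2 within the range of the c3NC libraries. Between the controls ACTG2 was higher in c3NC by 6.05 ± 0.44 (SE; limma, Benjamini-Hochberg adjusted p = 0.000693).

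The balance of the 2 smooth muscle actins also varied. ACTG2 over ACTA2, a ratio of FPKM, was 0.343 and 0.331 in cKDmix and 0.259 and 0.227 in c3NC. It was 0.910 and 0.447 in cRNA28250 and 0.0258 in c5NC. ACTG2 was thus nearest to ACTA2 in the overexpression libraries and lowest relative to ACTA2 in c5NC. These ratios were not tested. The proteins encoded by ACTA2, ACTG2, ACTB and ACTG1 are nearly identical. How any reads shared between these genes were counted is not given in the sources used here, so the split between actins is uncertain. ACTA2 relative to ACTB, the cytoplasmic beta actin, was 0.604 and 0.606 in cKDmix, 0.477 and 0.621 in c3NC, 0.382 and 0.400 in cRNA28250, and 0.0672 in c5NC.

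Of the myosin genes, MYH11 encodes the heavy chain that defines differentiated smooth muscle. MYH11 was at 9.13 and 10.41 FPKM in cKDmix and at 13.98 and 17.06 FPKM in c3NC. Both knockdown libraries were below both controls and below the 3 other libraries. Its log2 fold change in knockdown was −0.61 ± 0.19 (SE; limma, Benjamini-Hochberg adjusted p = 0.0392), which is −0.91 relative to the median of all genes. The call was lost when any 1 of the 4 libraries of this comparison was left out, at adjusted p from 0.118 to 0.243 (limma, Benjamini-Hochberg). In the other arm MYH11 was at 15.37 and 15.13 FPKM in cRNA28250 and at 12.67 FPKM in c5NC. It was the member that varied least, by 1.87 times between the highest and the lowest library, and the only one of the 10 for which c5NC was not the lowest. No call was made for MYH11 in overexpression against either control, with log2 fold changes of 0.25 against c5NC and −0.02 against c3NC.

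MYL9 encodes the regulatory light chain, the substrate of MYLK. MYL9 was at 565.12 and 501.01 FPKM in cKDmix and at 389.63 and 574.61 FPKM in c3NC, with overlapping groups. It was at 216.31 and 351.00 FPKM in cRNA28250 and at 114.94 FPKM in c5NC. Its log2 fold change was 0.17 in knockdown, 1.25 in cRNA28250 against c5NC and −0.78 against c3NC, and none of the 3 was called (limma, Benjamini-Hochberg adjusted p = 0.699, 0.0975 and 0.189). Between the controls it was higher in c3NC, by 2.03 ± 0.38 (SE; limma, Benjamini-Hochberg adjusted p = 0.0248), a call lost without any 1 of the c3NC or cKDmix libraries.

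MYLK, whose protein phosphorylates that light chain, was at 384.39 and 343.18 FPKM in cKDmix and at 194.52 and 227.58 FPKM in c3NC. It was at 29.52 and 40.09 FPKM in cRNA28250 and at 15.89 FPKM in c5NC. The 4 groups did not overlap, in the order cKDmix, c3NC, cRNA28250 and c5NC from high to low. The log2 fold change in knockdown was 0.78 ± 0.22 (SE; limma, Benjamini-Hochberg adjusted p = 0.0294), 0.49 relative to the median of all genes, and the ratio of means was 1.72. That call was lost without any 1 of the 4 libraries compared, at adjusted p from 0.0978 to 0.193 (limma, Benjamini-Hochberg), and with median ratio scaling (adjusted p = 0.144). Against c3NC, cRNA28250 was lower by a log2 fold change of −2.58 ± 0.22 in the fit (SE from limma, Benjamini-Hochberg adjusted p = 0.00154), a ratio of 0.165. Against c5NC it was 1.07 ± 0.27 and not called (limma, Benjamini-Hochberg adjusted p = 0.0538). Mean MYLK was 10.5 times as high in cKDmix as in cRNA28250, a pair that was not tested in the main fit. The gap between the controls, 3.65 ± 0.27 on the log2 scale (SE; limma, Benjamini-Hochberg adjusted p = 0.000693), was larger than either effect of cirRNA28250 in its listed pair.

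The ratio of kinase to substrate was also highest in cKDmix and next in c3NC. MYLK over MYL9 was 0.680 and 0.685 in cKDmix and 0.499 and 0.396 in c3NC. In the other arm it was 0.136 and 0.114 in cRNA28250 and 0.138 in c5NC. The cRNA28250 libraries were close to c5NC in this ratio, although c5NC was lower than both in each gene. The ratio was not tested.

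**Figure D3:**
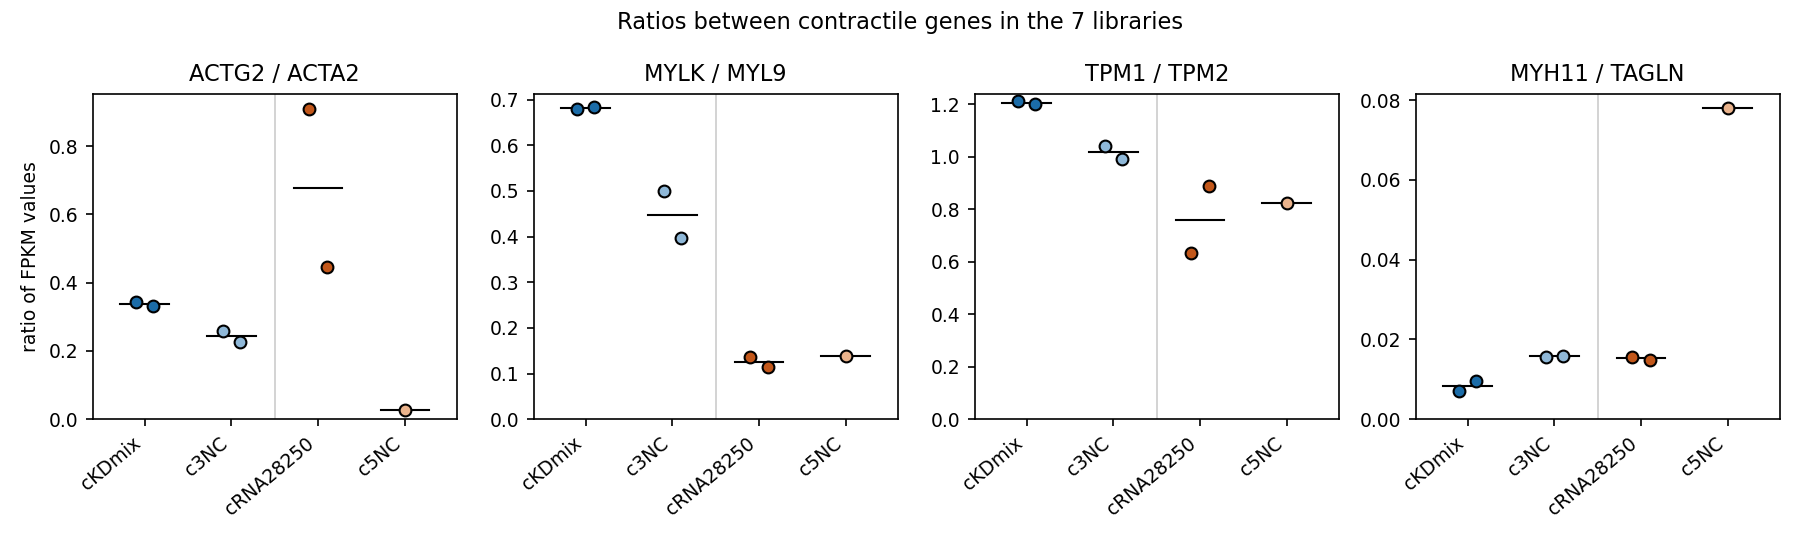
Ratios of FPKM within each library (linear axis) for ACTG2 over ACTA2, MYLK over MYL9, TPM1 over TPM2 and MYH11 over TAGLN, where each point is 1 library. ACTG2 over ACTA2 is 0.0258 in c5NC and at least 0.227 elsewhere, and MYLK over MYL9 parts cKDmix and c3NC (0.396 to 0.685) from cRNA28250 and c5NC (0.114 to 0.138).

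TAGLN encodes transgelin (SM22), an actin-binding protein that appears early in smooth muscle differentiation. TAGLN was at 1296.37 and 1081.90 FPKM in cKDmix and at 892.51 and 1072.80 FPKM in c3NC. The groups did not overlap, by a margin smaller than the spread within either, and the log2 fold change of 0.28 was not called (limma, Benjamini-Hochberg adjusted p = 0.444). TAGLN was at 986.19 and 1012.66 FPKM in cRNA28250 and at 162.16 FPKM in c5NC. The overexpression libraries lay inside the c3NC range. Against c5NC TAGLN rose by 2.62 ± 0.32 (SE; limma, Benjamini-Hochberg adjusted p = 0.00453), and against c3NC the log2 fold change was 0.03 with a 95% interval of −0.59 to 0.65. With only the libraries of cRNA28250 and c5NC in the fit the call was lost (limma, Benjamini-Hochberg adjusted p = 0.0788). Over the 6 libraries without c5NC, TAGLN stayed within 892.51 to 1296.37 FPKM.

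CNN1 encodes calponin 1, which binds actin and tropomyosin, lowers the ATPase activity of myosin and marks late smooth muscle and myoepithelial differentiation. CNN1 was at 29.99 and 29.65 FPKM in cKDmix and at 0.56 and 1.99 FPKM in c3NC. Means were 29.8 ± 0.240 FPKM in cKDmix and 1.27 ± 1.01 FPKM in c3NC (SD, n = 2 each), a ratio of 23.4. Its log2 fold change was 3.83 ± 0.35 (SE; limma, Benjamini-Hochberg adjusted p = 0.00149), 3.54 relative to the median of all genes, and ranked 20 in absolute size of the 12180 genes. Without cKDmix replicate 2 the call was lost (limma, Benjamini-Hochberg adjusted p = 0.0567); it held without each of the 6 other libraries.

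CNN1 also rose in overexpression. It was at 8.08 and 13.71 FPKM in cRNA28250 and at 0.10 FPKM in c5NC, so that both cRNA28250 libraries exceeded all 3 control libraries and lay below both cKDmix libraries. The log2 fold change was 3.39 ± 0.43 against c5NC (SE; limma, Benjamini-Hochberg adjusted p = 0.00474). Against c3NC it was 2.42 ± 0.35 (SE; limma, Benjamini-Hochberg adjusted p = 0.012). CNN1 was the only one of the 10 genes called against both controls in overexpression, and the only one called higher in both arms with the control each arm is listed beside. The difference between the effects of overexpression and knockdown on CNN1 was −0.44 ± 0.55 with a 95% interval of −1.72 to 0.84, and was not called (limma, Benjamini-Hochberg adjusted p = 0.632). Between the controls CNN1 differed by 0.97 ± 0.43 and was not called (limma, Benjamini-Hochberg adjusted p = 0.28). The fold against c5NC rests on a value of 0.10 FPKM, for which the depth is unknown.

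Of the thin filament genes, TPM1 and TPM2 encode the alpha and beta tropomyosins, which lie along the actin filament. TPM1 was at 878.95 and 816.81 FPKM in cKDmix and at 471.83 and 709.28 FPKM in c3NC. Both knockdown libraries exceeded both c3NC libraries, yet the log2 fold change of 0.55 ± 0.42 was not called (limma, Benjamini-Hochberg adjusted p = 0.333). TPM1 was at 273.83 and 653.45 FPKM in cRNA28250, 2.39 times apart, and at 129.38 FPKM in c5NC. Its log2 fold change of 1.70 against c5NC was not called either (limma, Benjamini-Hochberg adjusted p = 0.0945). The values give 1 level per gene, while the RefSeq table lists 18 transcript models for goat TPM1, so smooth muscle and non-muscle forms of it cannot be separated.

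TPM2 was at 725.52 and 680.67 FPKM in cKDmix and at 453.79 and 714.55 FPKM in c3NC, with overlap. It was at 431.98 and 736.59 FPKM in cRNA28250, spanning both c3NC values, and at 157.15 FPKM in c5NC. TPM2 rose against c5NC by 1.84 ± 0.42 (SE; limma, Benjamini-Hochberg adjusted p = 0.0409), and its log2 fold change was 0.30 in knockdown and −0.01 in cRNA28250 against c3NC, neither of them called. The c5NC call was lost without either c3NC library or either cKDmix library, at adjusted p from 0.0755 to 0.12 (limma, Benjamini-Hochberg). TPM1 over TPM2, a ratio of FPKM, was 1.21 and 1.20 in cKDmix and 1.04 and 0.993 in c3NC, and it was 0.634 and 0.887 in cRNA28250 and 0.823 in c5NC. TPM1 therefore exceeded TPM2 in both knockdown libraries and in c3NC replicate 1 and was below TPM2 in the 4 others.

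LMOD1 encodes leiomodin 1, the actin nucleator of smooth muscle. LMOD1 was at 7.16 and 8.99 FPKM in cKDmix and at 4.55 and 7.86 FPKM in c3NC, with overlap and a log2 fold change of 0.36 that was not called (limma, Benjamini-Hochberg adjusted p = 0.444). It was at 3.68 and 7.87 FPKM in cRNA28250 and at 0.61 FPKM in c5NC. Against c5NC it rose by 2.001 ± 0.43 (SE; limma, Benjamini-Hochberg adjusted p = 0.0339), a call that was lost without either cKDmix library (adjusted p = 0.109 each). Against c3NC the log2 fold change was −0.12 with a 95% interval of −0.94 to 0.69.

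The replicates of the members differed by unequal amounts. In cRNA28250, ACTG2, TPM1 and LMOD1 differed by over 2 times between the 2 libraries, with ACTG2 higher in replicate 1 and TPM1 and LMOD1 higher in replicate 2. In cKDmix the ratio of the higher to the lower replicate was at most 1.26 for any member. In c3NC all 10 members were higher in replicate 2 than in replicate 1, from 1.17 times for MYLK and ACTG2 to 3.55 times for CNN1. The root mean square log2 difference between replicates over the 10 genes was 0.749 in cRNA28250, 0.189 in cKDmix and 0.533 in c3NC; over all genes the SD of that difference was 0.585, 0.306 and 0.300.

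The counts of called genes in the lists that follow stand beside shares over all tested genes of 26.8% higher and 7.56% lower in knockdown, 5.07% and 2.55% in cRNA28250 against c5NC, and 3.55% and 0.764% against c3NC. With lists of 2 to 37 tested genes, no list was compared with the rest of the table by a test. Among 20 tested regulators of the smooth muscle programme, 4 rose and 3 fell in knockdown. KLF5, a zinc finger factor linked to smooth muscle proliferation, rose by 2.17 ± 0.25, and TEAD1, a Hippo pathway partner that binds smooth muscle promoters, by 1.37 ± 0.23 (SE; limma, Benjamini-Hochberg adjusted p = 0.00326 and 0.0069). TGFB1I1 (Hic-5), a TGF-beta inducible coactivator, fell by 0.62, at 27.42 and 27.21 FPKM in cKDmix against 45.64 and 39.80 FPKM in c3NC. SRF, which binds the CArG boxes of these genes, was not called in any comparison and ranged from 6.10 to 12.21 FPKM. MYOCD, the myocardin gene, was at 0.22 and 0.32 FPKM in cKDmix, 0.30 and 1.23 in c3NC, 1.73 and 0.90 in cRNA28250 and 0.09 in c5NC, without a call. In overexpression against c5NC, 1 regulator rose (GATA6) and 2 fell (KLF5 and KLF4). KLF4, a repressor of contractile genes, was at 59.13 and 22.08 FPKM in cRNA28250 and at 166.90 FPKM in c5NC, where it was highest of the 7 libraries. KLF5 was also at 22.10 FPKM in c5NC, above the 2.71 and 2.70 FPKM of cRNA28250 and above all other libraries. Against c3NC, GATA6 and FHL2 rose and none of the 20 fell.

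Of 37 tested genes whose products bind or anchor the contractile filaments, 10 rose and 5 fell in knockdown. CALD1, caldesmon, an actin-binding brake on myosin, rose to 580.25 and 577.60 FPKM in cKDmix, against 133.65 and 177.55 FPKM in c3NC, a log2 fold change of 1.90 ± 0.26 in the fit (SE from limma, Benjamini-Hochberg adjusted p = 0.0047). ZYX, zyxin of focal adhesions and stress fibres, rose by 1.60 ± 0.19 (SE; limma, Benjamini-Hochberg adjusted p = 0.00347). SMTN, smoothelin, a marker of contractile smooth muscle, fell by 0.93, at 12.39 and 15.05 FPKM in cKDmix against 28.51 and 25.50 FPKM in c3NC. CNN2, the more widely expressed calponin, fell by 0.84, while CNN1 rose. In overexpression 6 of the 37 rose and 2 fell against c5NC, and 5 rose and 2 fell against c3NC. HSPB7, a small heat shock protein of muscle, was at 6.06 and 6.09 FPKM in cRNA28250, against 0.04 FPKM in c5NC and 0.21 and 0.72 FPKM in c3NC, and was called against both controls. ACTN1, an alpha actinin, was lower in cRNA28250 than in c3NC, at 90.86 and 75.37 FPKM against 170.39 and 215.61 FPKM. With c5NC at 56.27 FPKM its log2 fold change against that control was 0.55 and not called, so the direction turned with the control.

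Of 26 tested genes of myosin phosphorylation, 4 rose and 2 fell in knockdown, against 26.8% higher and 7.56% lower over all genes. PPP1R12A, the targeting subunit of myosin phosphatase, was at 28.84 and 31.71 FPKM in cKDmix and at 7.37 and 11.36 FPKM in c3NC, a log2 fold change of 1.62 ± 0.28 in the fit (SE; limma, Benjamini-Hochberg adjusted p = 0.00755). PRKG1, the cGMP-dependent kinase of smooth muscle relaxation, fell by 0.73, at 1.96 and 1.97 FPKM in cKDmix against 3.75 and 4.07 FPKM in c3NC. In overexpression none of the 26 was called against c5NC, and against c3NC 1 rose and 1 fell. The gene that rose was MYL6B, a myosin light chain, at 7.93 and 6.67 FPKM in cRNA28250 against 3.76 and 2.50 FPKM in c3NC, while c5NC was at 8.13 FPKM.

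Non-muscle actin, myosin and tropomyosin genes were compared because their products do the same work in cells of any type. Of 10 tested, 1 rose in knockdown and none fell. That gene was TPM4, at 2026.67 and 1817.18 FPKM in cKDmix and at 905.41 and 983.83 FPKM in c3NC, a log2 fold change of 1.02 ± 0.28 in the fit (SE from limma, Benjamini-Hochberg adjusted p = 0.0268). In overexpression against c5NC only TMOD2, a tropomodulin, was called, and it was higher. None of the 10 was called between the controls, where 7 of the 10 smooth muscle genes were, and no test compared the 2 lists. MYH11 over MYH9, the non-muscle myosin heavy chain, was 0.0781 and 0.0582 in cKDmix, 0.111 and 0.129 in c3NC, 0.0847 and 0.155 in cRNA28250 and 0.115 in c5NC.

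Genes of TGF-beta signalling and the myofibroblast matrix moved in both directions. Of 26 tested, 6 rose and 4 fell in knockdown. TGFBR1, the type I receptor, was at 17.73 and 18.07 FPKM in cKDmix and at 9.37 and 8.20 FPKM in c3NC and was called higher, while COL1A2, a chain of type I collagen, was at 1034.63 and 1101.78 FPKM in cKDmix and at 2542.89 and 2738.95 FPKM in c3NC and was called lower. FN1, fibronectin, fell by 2.11. Against c5NC, 4 rose and 1 fell in overexpression. TGFBI, a matrix protein induced by TGF-beta, was at 30.59 and 17.63 FPKM in cRNA28250 and at 0.91 FPKM in c5NC. Its c3NC values, 47.32 and 98.43 FPKM, were above both cRNA28250 libraries, with a log2 fold change of −1.51 that was not called (limma, Benjamini-Hochberg adjusted p = 0.0669), so its direction also turned with the control. LOX, a collagen crosslinking enzyme, was at 164.78 and 169.70 FPKM in cRNA28250 and at 634.75 FPKM in c5NC. Against c3NC, THBS1 and LTBP2 were lower in cRNA28250 and none of the 26 was higher.

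Markers of the cell types that could carry these genes were at unequal levels. The 17 fibroblast markers measured summed to 15646 and 14856 FPKM in cKDmix, 23895 and 25051 in c3NC, 22827 and 21268 in cRNA28250 and 18493 in c5NC. In knockdown 1 of the 16 tested rose and 6 fell. In overexpression 6 rose and none fell against c5NC, and 2 rose and none fell against c3NC. Of the 14 vascular smooth muscle markers, 3 are members here. The 14 summed to 135.9 and 157.6 FPKM in cKDmix, 129.5 and 176.4 in c3NC, 139.8 and 172.0 in cRNA28250 and 155.5 in c5NC. The group sums overlapped, but single markers moved both ways. In knockdown 3 of the 11 tested rose (KCNMB1, CNN1 and CASQ2) and 3 fell (NTRK3, SMTN and MYH11). In overexpression 2 rose and 1 fell against c5NC, and 2 rose and 1 fell against c3NC. Some markers of smooth muscle and pericytes were near 0 and others were well above it. DES, desmin, was at most 0.20 FPKM in any library, RGS5 at most 0.17, MCAM at most 0.05 and PLN at most 0.81. By contrast MYH11 was at 9.13 FPKM or more, SMTN ranged from 12.39 to 28.51 FPKM, PDGFRB from 27.44 to 76.21 FPKM, CSPG4 from 5.06 to 16.08 FPKM and NOTCH3 from 5.61 to 15.57 FPKM.

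Pericyte markers fell in knockdown for 4 of 9 tested and rose for none. Their sum was 69.9 and 84.6 FPKM in cKDmix, 220.7 and 197.1 in c3NC, 386.7 and 271.9 in cRNA28250 and 116.0 in c5NC. In cRNA28250 most of it was NDUFA4L2, a mitochondrial protein, at 204.41 and 144.34 FPKM against 1.99 FPKM in c5NC. Of the 15 basal and myoepithelial markers measured, 4 were tested and 5 reached 1 FPKM in any library. Their sum was 40.9 and 50.1 FPKM in cKDmix, 3.61 and 6.12 in c3NC, 14.6 and 17.1 in cRNA28250 and 108.9 in c5NC, where ITGA6, the alpha 6 integrin, made up 84.53 FPKM. KRT5 was at most 0.53 FPKM in any library, TP63 at most 0.05, and KRT14 was at 4.22 FPKM in c5NC and at most 0.78 elsewhere. Of the 20 luminal markers measured, 6 reached 1 FPKM in any library. The 20 summed to 28.9 and 32.1 FPKM in cKDmix, 30.0 and 33.2 in c3NC, 31.8 and 44.4 in cRNA28250 and 82.5 in c5NC. In c5NC, EHF, an epithelial ETS factor, gave 44.59 FPKM and ESR1 gave 22.32 FPKM, but ESR1 was at 17.56 to 22.81 FPKM throughout. KRT7, KRT19 and PROM1 were also highest in c5NC (3.81, 5.53 and 1.19 FPKM), while CLDN4 was lowest there (4.45 FPKM). EPCAM, KRT8 and KRT18 were at most 0.02, 0.28 and 0.18 FPKM in any library. The c5NC library, lowest in 9 of the 10 contractile genes, was thus highest in both epithelial sums, and the part of cell makeup in the contractile gene results was not tested. By the labels the cells came from mammary gland, without a cell type, and fibroblast collagen genes were far above the keratins in all 7 libraries.

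**Figure D4:**
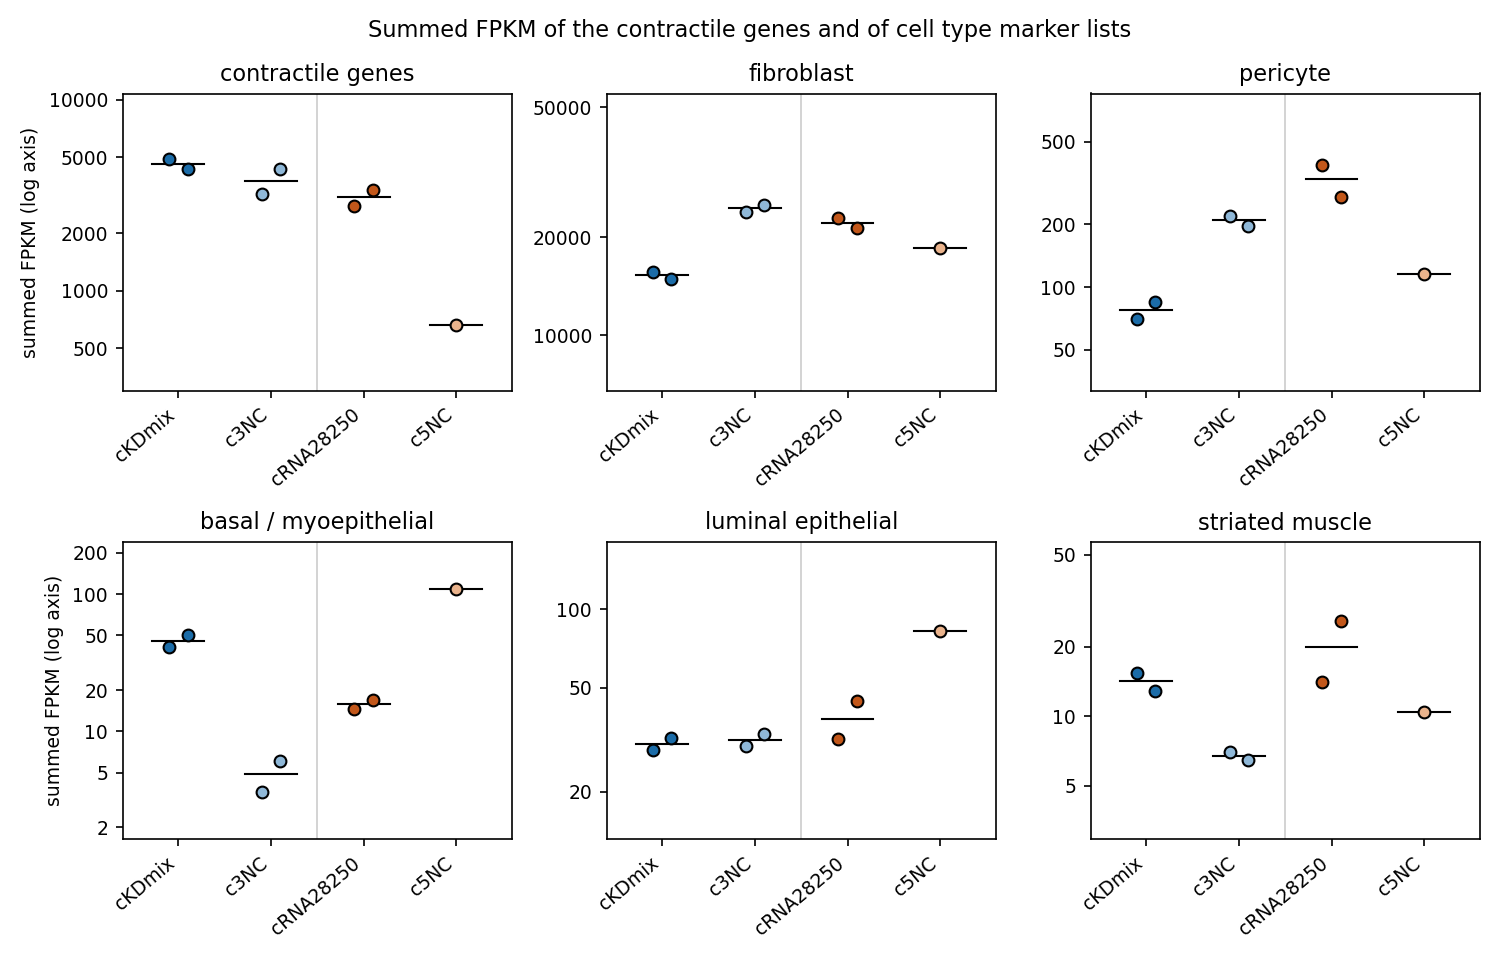
Summed FPKM (log axis) of the 10 contractile genes and of fixed marker lists in each library; each point is 1 library. The contractile genes sum to 658 FPKM in c5NC and 2789 to 4909 FPKM elsewhere, while the basal and myoepithelial markers are highest in c5NC at 108.9 FPKM.

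Striated muscle genes stayed low. Of 18 measured, 5 were tested, and their sum ran from 6.47 to 25.74 FPKM over the 7 libraries. ACTA1, the skeletal alpha actin, reached at most 1.43 FPKM and ACTC1, the cardiac form, at most 0.21 FPKM. In knockdown 1 striated gene rose and none fell; of 2 endothelial markers tested 1 rose and 1 fell, of 4 adipocyte markers 3 rose and 1 fell, and of 4 macrophage markers 1 rose and 2 fell.

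Genes whose levels moved most like ACTA2 over the 7 libraries were WFDC1 and RCN1, with a root mean square difference of 0.376 each between centred log2 profiles, followed by S1PR3 (0.451), CD200 (0.455) and DUOXA1 (0.459), among 10757 named genes. WFDC1, a secreted WAP domain protein, was at 3077.80 and 2655.08 FPKM in cKDmix, 2600.41 and 3886.44 in c3NC, 1454.91 and 2416.92 in cRNA28250 and 483.73 in c5NC. RCN1 is a calcium-binding protein of the endoplasmic reticulum. All 5 were lowest in c5NC, as ACTA2 was. For ACTG2 the nearest were MMP3 (0.941), TGFBI (1.07), PSAT1 (1.15), RCN1 (1.18) and LY6E (1.22), which are farther from it than the 5 nearest genes are from ACTA2. MMP3, a matrix metalloproteinase, was at 0.26 FPKM in c5NC and between 9.68 and 31.23 FPKM in the 6 other libraries. These distances describe 7 libraries and rest largely on the low value in c5NC.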

How the data were processed

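Gene levels were taken from the deposited table of FPKM values, which the authors made from their reads (1 column per library, per the file headers). The aligner, gene model, build and strandedness, and whether libraries were scaled to each other, were not given in the sources used here. Identifiers were matched to symbols through RefSeq's table for goat assembly ARS1.2, which served only to name genes: 17007 of 17374 matched and 367 did not. Groups came from the sample titles.

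The test covered the 12180 genes that reached 1 FPKM in 2 or more libraries, on log2(FPKM + 1), pseudocount 1, in 1 limma fit (limma 3.58.1, R 4.3.3) with 1 mean per group, a variance trend, and 3 residual and 4.66 prior degrees of freedom. The spread of the lone c5NC library was taken to equal that of the other groups. Tests are two-sided with Benjamini-Hochberg adjustment over all genes tested, at 0.05. The fit was tried on simulated data with equal spread for every gene and changes in cKDmix only, read against c3NC. That check does not cover comparisons with the single c5NC library. Since only FPKM were used, no count model was fitted and the depth is unknown.

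The members, the 15 other gene lists and the tests were chosen with earlier results of these data known. All 10 members are described; of each other list up to 3 called genes per direction and comparison were eligible for naming by smallest p (some that meet this rule are not reported here), and genes outside this rule (SRF, MYOCD and the defining cell type markers) were named to give their levels. For likeness, the 5 named genes nearest ACTA2 and ACTG2 by root mean square difference of centred profiles were taken. There were 18 alternative settings, of which the crossed replicate block was chosen after seeing the data.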

Additional observations from a re-analysis of the deposited data

Results flagged for a closer look

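Of the contractile genes, ACTG2, ACTA2 and TAGLN were singled out because the effect of overexpression against c5NC differed from the effect of knockdown against c3NC by a test of the difference itself. The difference in log2 fold change was 6.18 ± 0.57 for ACTG2, 2.69 ± 0.40 for ACTA2 and 2.34 ± 0.42 for TAGLN (SE; limma, Benjamini-Hochberg adjusted p = 0.00182, 0.0096 and 0.0179). In all 3 the knockdown effect was near 0 or small and not called (0.44, −0.03 and 0.28), and the overexpression effect was set against the c5NC library, in which the 3 genes were at 1.64, 63.51 and 162.16 FPKM. With the controls exchanged the differences were −5.92, −4.27 and −2.83. The call for ACTG2 held when any 1 of the 6 libraries other than c5NC was left out. The call for ACTA2 was lost without c3NC replicate 2 or without either cKDmix library, and that for TAGLN without any 1 of the c3NC or cKDmix libraries.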

How the results depend on the processing

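Limits: each group has at most 2 libraries, c5NC has 1, depth is unknown, and the numbers of contractile genes called moved with single libraries and with the control. The cause of each change below was not tested.

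In knockdown, where 3 of the 10 genes were called, 1 was called with no filter, 5 with quantile normalization, 1 with all control libraries pooled, 9 with c5NC as control, and 0 to 3 with 1 library left out. In overexpression against c5NC, where 6 were called, 3 were called with only the groups compared, 1 with pooled controls, 2 with c3NC as control, and 4 to 9 with 1 library left out. For the difference of effects, where 3 were called, 8 (all negative) were called with exchanged controls, 5 with the crossed replicate block, and 1 to 7 with 1 library left out. With pooled controls the control cancels, which leaves cRNA28250 directly against cKDmix, and 0 were called. The gap between c3NC and c5NC still enters the estimate of spread in every fit with pooled controls. A count of 0 there does not show that cRNA28250 and cKDmix were alike in these genes. Between the controls, where 7 were called, 4 were called with no filter and 3 to 8 with 1 library left out. Leaving out cRNA28250 replicate 1 raised the overexpression count to 9.

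Same-numbered libraries share only a number in the labels. The correlation of their deviations over genes was 0.111 between cKDmix and c3NC, 0.283 between cRNA28250 and c3NC, and −0.152 between cRNA28250 and cKDmix. The replicate block gave 3 genes called in knockdown, 6 in overexpression, 4 for the difference and 7 between the controls.

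Directions in knockdown turned for ACTA2 (0.60 with quantile normalization, 1.13 with pooled controls, 3.45 with c5NC as control), TAGLN (−0.071), TPM2 (−0.043) and MYL9 (−0.18) with median ratio scaling, and LMOD1 (−0.081) with quantile normalization. With 1 library left out, ACTA2 was above 0 without c3NC replicate 2 (0.18) and cKDmix replicate 2 (0.065), and TPM2 ran from −0.024 (without c3NC replicate 1) to 0.63 and MYL9 from −0.11 (the same) to 0.45. In overexpression with c3NC as control, directions turned for ACTA2 (−0.82), MYH11 (−0.018), MYLK (−2.58), TPM1 (−0.45), TPM2 (−0.014), LMOD1 (−0.12) and MYL9 (−0.78), and with pooled controls for MYLK (−1.36) and MYL9 (−0.10). With pooled controls the difference of effects becomes cRNA28250 directly against cKDmix, since the control cancels. It was then negative, where the difference of effects was positive, for ACTA2 (−0.79), TAGLN (−0.24), MYLK (−3.36), TPM1 (−1.0002), TPM2 (−0.32), LMOD1 (−0.49) and MYL9 (−0.95). With exchanged controls the difference of effects turned for ACTA2 (−4.27), ACTG2 (−5.92), TAGLN (−2.83), MYLK (−7.01), TPM1 (−3.15), TPM2 (−2.17), LMOD1 (−2.61) and MYL9 (−2.98). It also turned for MYLK with quantile normalization (−0.17) and for CNN1 with a pseudocount of 0.1 (1.06) and, with 1 library left out, where it ran from −0.91 to 0.028 (without c3NC replicate 1).

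Over all genes, 4191 were called in knockdown (3270 higher, 921 lower), with 2729 under quantile normalization (1339 higher, 1390 lower), 6390 with only the groups compared, 2655 with c5NC as control and 45 to 6394 with 1 library left out. In overexpression 928 were called, with 231 for only the groups compared, 191 with pooled controls, 525 with c3NC as control and 308 to 2904 with 1 library left out. The difference of effects had 938, with 615 under the replicate block and 93 to 3430 with 1 library left out. With pooled controls, which leave cRNA28250 directly against cKDmix with the control gap in the spread, 465 were called. The number with exchanged controls is not given here. Between the controls 707 were called, with 1325 for only the groups compared, 443 under the replicate block and 192 to 1879 with 1 library left out.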

Other observations

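Genes of membrane potential and calcium handling in smooth muscle changed in both directions. Of 18 tested, 8 rose and 5 fell in knockdown, beside 26.8% of all tested genes higher and 7.56% lower. KCNMB1, the beta subunit of the large-conductance calcium-activated potassium channel in smooth muscle, was at 15.93 and 17.50 FPKM in cKDmix and at 0.36 and 0.77 FPKM in c3NC, a log2 fold change of 3.51 ± 0.20 in the fit (SE; limma, Benjamini-Hochberg adjusted p = 0.000296). KCNMA1, the pore-forming subunit of the same channel, went the other way, at 0.54 and 0.77 FPKM in cKDmix against 4.34 and 3.90 FPKM in c3NC, a log2 fold change of −1.63 ± 0.24 in the fit (SE; limma, Benjamini-Hochberg adjusted p = 0.00537). KCNMB1 was also at 16.84 and 15.72 FPKM in cRNA28250 and at 13.02 FPKM in c5NC, so c3NC was the lowest group for this gene, whereas c5NC was the lowest library for 9 of the 10 contractile genes.

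Both parts of the vascular KATP channel fell in knockdown. KCNJ8, its pore, was at 2.65 and 1.84 FPKM in cKDmix against 81.17 and 73.31 FPKM in c3NC, and ABCC9, its regulatory subunit, was at 1.32 and 2.31 FPKM in cKDmix against 17.65 and 15.73 FPKM in c3NC. In cRNA28250 KCNJ8 was at 13.52 and 26.69 FPKM and ABCC9 at 31.47 and 34.32 FPKM, against 15.20 and 4.29 FPKM in c5NC. Against c5NC the log2 fold change was 0.31 for KCNJ8, not called, and 2.68 for ABCC9, called higher. Against c3NC KCNJ8 was called lower, at −1.96 (limma, Benjamini-Hochberg adjusted p = 0.0163). ABCC9 was not called against c3NC, at 0.94 (limma, Benjamini-Hochberg adjusted p = 0.0626). ATP2B4, a plasma membrane calcium pump, rose to 14.30 and 15.79 FPKM in cKDmix, against 1.85 and 2.2 FPKM in c3NC. ITPR1, the inositol trisphosphate receptor of calcium release, fell in knockdown, at 11.70 and 15.12 FPKM in cKDmix against 39.44 and 47.65 FPKM in c3NC. At 20.74 and 12.22 FPKM in cRNA28250 it was also called lower than in c3NC, but above the 6.62 FPKM of c5NC, a log2 fold change of 1.15 that was not called (limma, Benjamini-Hochberg adjusted p = 0.0823). In overexpression 4 of the 18 rose and none fell against c5NC, and 2 rose and 2 fell against c3NC.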
